A study of Mus musculus with 4 samples.

Results

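The C/EBP family loci are the chromatin around 6 mouse genes: Cebpa, Cebpb, Cebpd, Cebpe, Cebpg and Ddit3. ATAC-seq peaks of 4 libraries were merged wherever they overlapped by 1 bp or more, and a region belonged to a locus if it lay in the gene body or within 50 kb of it on mm10. This gave 226 distinct regions out of 560228 in the genome. There are 229 pairs of a region and a gene, because 3 regions lie in the windows of both Cebpa and Cebpg, which are neighbours on chromosome 7. A region with a peak in all 4 libraries is called shared below.

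C/EBP proteins are transcription factors with a basic region that contacts DNA and a leucine zipper through which they pair with each other or with related proteins. C/EBPα and C/EBPβ drive differentiation in liver, fat and myeloid cells, C/EBPβ and C/EBPδ are induced by cytokines and cAMP, and C/EBPε acts late in granulocyte development. C/EBPγ lacks an activation domain and works through its partners, and the product of Ddit3, CHOP, is a stress-induced member whose dimers do not bind the usual C/EBP sites.

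All libraries came from clone 11 of mpkCCD, an immortalised mouse line from the kidney's cortical collecting duct, at passages 8 to 10. The line is a single clone, so these data describe that clone. Confluent cells on permeable supports, in medium lacking serum and hormones, received for 30 minutes either 0.1 nM dDAVP, which activates the vasopressin V2 receptor, or vehicle alone. Each treatment has 2 libraries of 50000 cells. Whether the libraries of a treatment are separate cultures is not stated, so their spread may be technical.

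The lists held 393956 and 206972 peaks for vehicle replicates 1 and 2, and 291454 and 205771 for dDAVP replicates 1 and 2. The lists give positions only, so the read depth is unknown and a region without a peak is one where none was called. In bulk material, a site open in few cells and one weakly open in all cannot be told apart. Of the 14 principal cell markers, 10 had a peak within 1 kb of a gene end in all libraries (65.0% of all protein-coding genes did). The Aqp2 water channel gene was among them, with peaks of 671, 648, 991 and 782 bp. The V2 receptor gene Avpr2 had one only in vehicle replicate 2 and dDAVP replicate 1, of 121 and 107 bp. The widest means in this list were at St6gal1 (1918.5 bp), Gata3 (1341 bp) and Scnn1a (1200 bp). Aqp4 had no such peak in any library. The count was 4 of 8 for intercalated cell markers, 4 of 8 for proximal tubule markers and 2 of 10 for leukocyte and stromal markers. In the last list Col1a1 had 1162, 1231, 1382 and 1085 bp and Cd68 had 271, 1173, 198 and 1105 bp. Ptprc, C1qa and C1qb had no such peak in any library. A peak at a gene end does not show that the gene is transcribed.

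The promoters of 4 members are printed because all of their bases lay inside the peak at the gene's start in each of the 4 libraries. They are the RefSeq sequences on GRCm38.p6, the assembly behind mm10, from 250 bases before the start to 50 after it, on the gene's own strand. Cebpd and Cebpe are named only. Capitals mark matches, on either strand, to any of 8 motifs searched.
Cebpa: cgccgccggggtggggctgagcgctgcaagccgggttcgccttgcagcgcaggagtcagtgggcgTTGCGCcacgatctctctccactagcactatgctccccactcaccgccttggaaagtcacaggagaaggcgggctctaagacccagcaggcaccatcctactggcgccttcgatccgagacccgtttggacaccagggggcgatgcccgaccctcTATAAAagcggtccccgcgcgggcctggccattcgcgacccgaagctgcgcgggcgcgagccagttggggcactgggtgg
Cebpb: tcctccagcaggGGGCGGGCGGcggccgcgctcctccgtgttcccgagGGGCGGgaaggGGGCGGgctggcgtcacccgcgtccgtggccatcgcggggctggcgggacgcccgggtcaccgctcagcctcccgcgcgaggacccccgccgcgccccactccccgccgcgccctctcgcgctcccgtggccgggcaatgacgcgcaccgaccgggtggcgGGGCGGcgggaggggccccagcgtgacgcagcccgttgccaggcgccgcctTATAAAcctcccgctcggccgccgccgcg
Cebpg: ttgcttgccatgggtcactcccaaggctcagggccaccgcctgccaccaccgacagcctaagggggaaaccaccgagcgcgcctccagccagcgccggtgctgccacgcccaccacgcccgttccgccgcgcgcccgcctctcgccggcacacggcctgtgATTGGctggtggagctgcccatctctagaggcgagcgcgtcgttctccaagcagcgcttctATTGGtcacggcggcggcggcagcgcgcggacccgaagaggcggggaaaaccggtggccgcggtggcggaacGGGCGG
Ddit3: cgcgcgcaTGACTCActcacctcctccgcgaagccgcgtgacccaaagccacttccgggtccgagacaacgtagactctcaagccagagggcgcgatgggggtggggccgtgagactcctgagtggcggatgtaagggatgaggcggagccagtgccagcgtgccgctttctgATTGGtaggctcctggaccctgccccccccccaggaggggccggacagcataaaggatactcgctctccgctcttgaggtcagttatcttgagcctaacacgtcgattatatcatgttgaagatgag
They lie at chr7:35119043-35119342 (plus strand), chr2:167688665-167688964 (plus), chr7:35056517-35056816 (minus) and chr10:127290543-127290842 (plus).

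The Cebpb promoter was the richest in G and C of the printed sequences, at 80.7%, above 99.0% of the 21263 promoters of protein-coding genes. Cebpg stood at 71.7%, Cebpa at 67.3% and Ddit3 at 60.7%, all above the median promoter at 56.3%. The ratio of observed to expected CpG was 0.853 for Cebpa, 1.03 for Cebpb, 0.988 for Cebpg and 0.797 for Ddit3, against a median of 0.567. All of these promoters were thus above the middle of the distribution on both measures.

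Positions below are counted from the start, with the first base of the match given. Cebpa held TATAAA, the TATA box, at -30 and TTGCGC, the first 6 letters of the C/EBP palindrome, at -185. Cebpb held GGGCGG, the GC box bound by SP factors, 5 times, at -238, -234, -202, -191 and -30, where the first pair overlap, and TATAAA at 22. Cebpg held CCAAT on the reverse strand at -89 and -28 and GGGCGG at 45. Ddit3 held an AP-1 match (TGANTCA) at -242 and CCAAT on the reverse strand at -77. None of these promoters held TTGCGCAA, the full C/EBP palindrome, TGATGCAA, the composite site of C/EBP and ATF proteins, or TGACGTCA, the cAMP response element. Among all promoters of that length, TTGCGCAA occurred in 0.221%, TGATGCAA in 0.865%, TGACGTCA in 2.23%, TGANTCA in 6.99%, TTGCGC in 8.23%, TATAAA in 12.6%, CCAAT in 38.2% and GGGCGG in 46.2%. These are matches to the letters given and not measured binding. Variants of the motifs and sites outside the printed bases were not counted.

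The peaks at the gene ends differed widely between members, from a mean width of 319 bp at Cebpe to 3131 bp at Ddit3. Since the strand is not given for every gene, for each gene the widest peak within 1 kb of either end was taken, and widths are given in bp for vehicle replicates 1 and 2 and then dDAVP replicates 1 and 2. Where a region is named, its width in a library is instead the sum of all peaks of that library in the region. Among 14219 protein-coding genes with such a peak in every library, the median of the mean width was 1001.5 bp.

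Ddit3 (chr10:127290793-127296291) had the widest, at 2888, 3227, 3215 and 3194 bp, a mean of 3131 ± 163 bp (SD, n = 4). It was wider than in 99.9% of those genes and differed little between libraries. It reached 2372 to 2636 bp upstream of the Ddit3 start and 488 to 854 bp downstream, within the region chr10:127288157-127291647. That region also holds annotated starts of Mbd6, a gene of the opposite strand that encodes a methyl-CpG-binding-domain protein, so its width cannot be given to Ddit3 alone. At the other end of Ddit3 a second shared region, chr10:127296042-127297998, ran into the end of Mars1 and was the least even of the shared regions, at 1470, 82, 625 and 91 bp, with no base covered in all 4 libraries.

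Cebpb (chr2:167688915-167690432) followed with 1899, 2155, 2054 and 1949 bp, a mean of 2014 ± 114 bp (SD, n = 4) and wider than in 97.4% of those genes. The downstream border of its peak was nearly fixed, 1244 to 1262 bp after the start in the 4 libraries, while the upstream border lay 636 to 910 bp before it. The peak thus covered most of the gene's 1518 bp in every library. Cebpd (chr16:15887286-15889545), also a cytokine-induced gene, had a peak of 1537, 1537, 1562 and 1555 bp, wider than in 88.6% of those genes. Its SD of 12.7 bp (n = 4) was the smallest among the members, and 1534 bp of the region chr16:15886649-15888210 were covered in all 4 libraries.

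Cebpa (chr7:35119293-35121928) had 1503, 1347, 1743 and 1106 bp, with a mean of 1425 ± 268 bp (SD, n = 4), wider than in 83.5% of those genes. Both extremes came from dDAVP libraries. Its upstream border lay 917 to 1008 bp before the start and its downstream border 188 to 734 bp after it, so that the spread was on the side of the gene body, the reverse of Cebpb. Cebpg (chr7:35046422-35056566) had 1179, 990, 938 and 1310 bp, with a mean of 1104 ± 172 bp (SD, n = 4), wider than in 59.5%. Its region, chr7:35055663-35057016, also touches the annotated protein-coding gene Gm45095.

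Cebpe (chr14:54710363-54712174), the granulocyte gene, stood apart with 386, 125, 575 and 189 bp, a mean of 319 ± 204 bp (SD, n = 4) and wider than in only 3.90%. It was also the sole member without a single shared region at its ends. One region, chr14:54711479-54712054, had peaks in vehicle replicate 1 and both dDAVP libraries, another, chr14:54712694-54713053, in both vehicle libraries and dDAVP replicate 2, and a further one, chr14:54710542-54710927, in vehicle replicate 1 alone. A shared region did lie 1841 bp beyond the gene's high-coordinate end, chr14:54714015-54715307, with 1052, 674, 707 and 880 bp. The order of means was Ddit3, Cebpb, Cebpd, Cebpa, Cebpg and Cebpe. The ranges of the libraries did not overlap between Ddit3 and Cebpb, Cebpb and Cebpd, or Cebpg and Cebpe, but overlapped between Cebpd and Cebpa and between Cebpa and Cebpg.

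**Figure D1:**
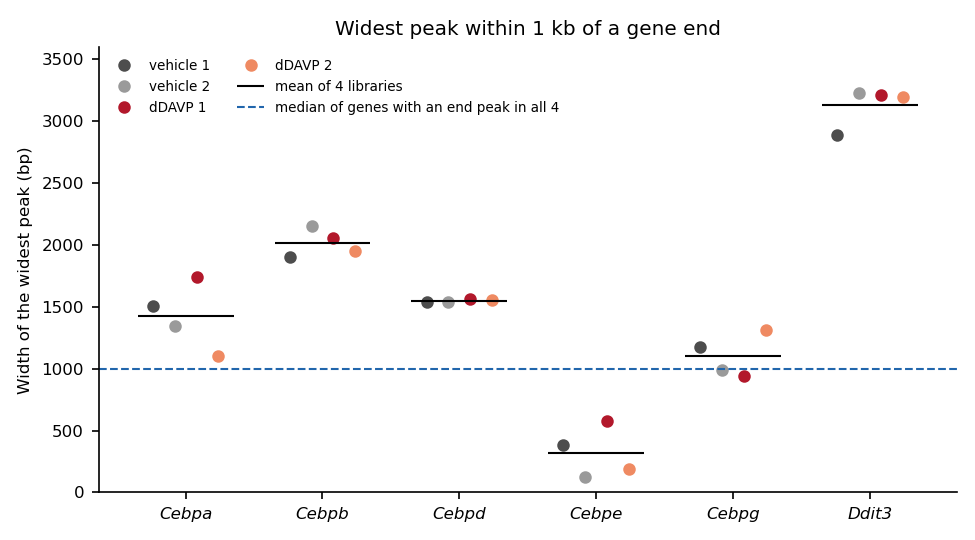
Width in bp of the peak taken at the ends of each of the 6 genes, 1 point per library, with black lines for the mean of the 4 libraries and a dashed line for the median of genes with an end peak in all 4 (1001.5 bp). Ddit3 sits highest, between 2888 and 3227 bp, Cebpe lowest, between 125 and 575 bp, and the treatments overlap except at Cebpd, where the libraries lie between 1537 and 1562 bp.

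With peaks counted at either end, all 6 members had one in every library, where 65.0% of protein-coding genes did. With 1 shared region required, 5 of 6 did, where 64.2% of genes did, and Cebpe was the exception. Cebpe also dropped out when the window was 0.5 kb (59.4% of genes) or when peaks narrower than their library's median were dropped (58.1%).

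Of the 226 regions, 48 were shared, 37 were in 3 libraries, 33 in 2 and 108 in 1. Shared regions were thus 21.2% of the total, where 15.7% of all merged regions were shared, and regions of 1 library were 47.8%, where the share was 53.1%. No test was made of these differences. Shared regions in the loci were wider, with a median of 1080.5 bp against 770 bp over the genome, and those of 1 library were short, at 175.5 bp against 153 bp. These medians are of the span of the merged region, from its first to its last base. The windows surround genes, so these sets are unlike. Of the shared regions, 37.5% in the loci and 16.9% in the genome lay within 1 kb of a protein-coding gene end. Median spans were 1537.5 and 1150 bp at such ends and 789.5 and 708 bp elsewhere. In 42 of the 48, or 87.5%, at least 1 base was covered in all 4 libraries, where the share was 88.9% over all shared regions. The other 6, including 4 around Ddit3, were joined only through chains of overlapping peaks.

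Cebpb had the most shared regions, 18 of 50, more than 92.0% of all protein-coding genes have within 50 kb. Ddit3 followed with 11 of 50 (more than 69.8% of genes), Cebpa with 7 of 22 (50.9%), Cebpe with 6 of 45 (45.2%), Cebpd with 5 of 52 (38.5%) and Cebpg with 1 of 10 (8.06%). The median gene had 6 shared regions out of 36. Windows include the gene body, so longer genes have wider windows. Among the 8000 genes no longer than the longest member (median 5), Cebpb exceeded 96.6%, Ddit3 74.8% and Cebpa 57.0%. Of the same genes, Cebpe exceeded 52.3%, Cebpd 47.1% and Cebpg 14.9%. Cebpd had the most regions of any member, yet only 9.62% of them were shared, and 31 of the 45 around Cebpe came from 1 library.

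Position on the chromosome changed part of that order. Against genes of the same chromosome, Cebpa exceeded 77.6% (median 3 shared regions) and Cebpb 92.3% (median 6), while Cebpd exceeded 12.2% (median 11) and Ddit3 41.5% (median 12). Cebpe exceeded 55.2% (median 5) and Cebpg 14.7% (median 3). Cebpb was therefore high and Cebpg low against all genes and within their chromosomes, while Ddit3 moved from above the middle to below it. Single libraries moved 2 of these counts by over 1.5 times. For Cebpd, without vehicle replicate 2 the count was 10, and without dDAVP replicate 2 it was 9. The Cebpg count was 2 without either of those libraries.

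**Figure D2:**
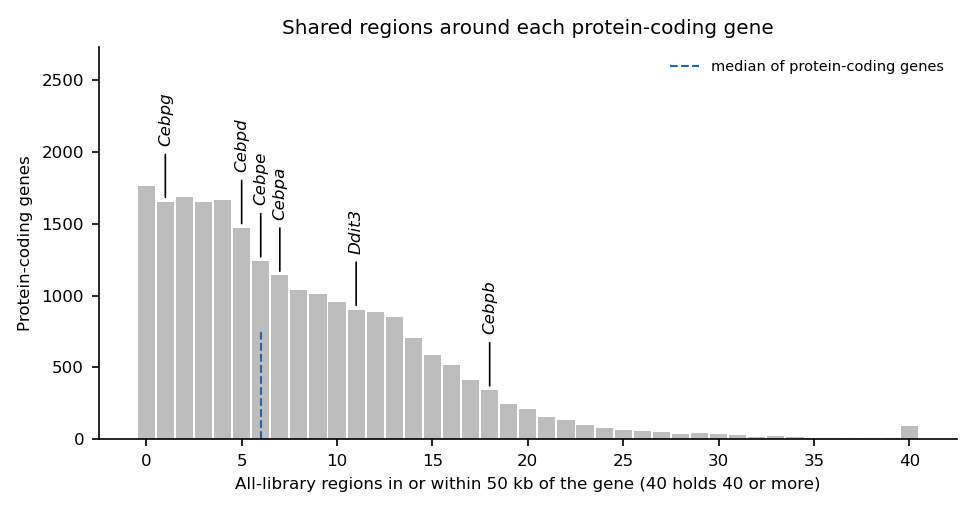
Number of shared regions in or within 50 kb of each of the 6 genes, marked on a histogram of the same number over all protein-coding genes, whose last bar holds 40 or more; the dashed line is the median. Cebpb, with 18, lies far to the right of the median of 6, and Cebpg, with 1, near the left edge.

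The 18 shared regions around Cebpb lay on both sides, 7 at lower coordinates, 1 over the gene and 10 at higher coordinates, and only 2 were within 1 kb of an end of another protein-coding gene. That gene was Tmem189, which encodes the plasmanylethanolamine desaturase, and its wide region chr2:167659277-167662122 had 2461, 2844, 2812 and 2831 bp. The 10 regions downstream of Cebpb reached no other protein-coding gene in the window. The widest of them, chr2:167707357-167708995, had 1239, 756, 797 and 1637 bp, and chr2:167721241-167722420 had 987, 1128, 1074 and 1129 bp. The latter lies 30.8 kb past the gene, and its widest library exceeded its narrowest by only 1.14 times. The farthest, chr2:167739169-167740435, lay 48.7 kb away, with 913, 584, 710 and 713 bp. A region 8290 bp upstream, chr2:167679945-167680625, was close to constant at 608, 582, 635 and 630 bp.

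The Cebpa locus was 1-sided. No shared region lay between the window's low edge and the Cebpa start, and 6 lay beyond the gene, none of them at another protein-coding gene end. They began 7.04 kb past the gene and ended with chr7:35171646-35172830, 49.7 kb away, at 1014, 902, 702 and 512 bp. The region before it, chr7:35159837-35160921, was wider in all 4 libraries, at 1033, 947, 1075 and 702 bp. The first of the 6, chr7:35128973-35129549, had 552, 475, 304 and 512 bp. On the other side, Cebpg had its gene-end region as the only shared one among 10.

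Around Ddit3, in a window that holds 6 other protein-coding genes, 2 of the 11 shared regions lay at the ends of Ddit3 and 5 at ends of other genes alone. The latter included chr10:127311082-127312570 at the start of Mars1, the methionyl-tRNA synthetase gene, with 1363, 1403, 1378 and 1416 bp. At Gli1, a Hedgehog-responsive transcription factor gene, chr10:127338912-127341031 had 2107, 1259, 1464 and 1397 bp. The farthest shared region, chr10:127341899-127342715, 45.6 kb from Ddit3 and also at Gli1, had 546, 733, 676 and 817 bp. The wide shared regions of this locus thus mostly belonged to gene ends.

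Around Cebpd, 2 of the 5 shared regions lay at other protein-coding ends. The region at Mzt2, which encodes a spindle-organising protein, chr16:15861489-15863669, had 2167, 1651, 1275 and 1374 bp. The other, chr16:15842487-15843718 at Prkdc, the gene for the catalytic subunit of DNA-dependent protein kinase, had 1049, 862, 883 and 152 bp. A smaller shared region inside Spidr, a DNA repair gene, chr16:15898899-15899468, had 563, 543, 524 and 474 bp. Around Cebpe, 3 of the 6 lay at other gene ends. The region over the starts of Acin1, an RNA-processing gene, and 1700123O20Rik, chr14:54686030-54687241, had 1182, 1205, 1196 and 1205 bp. The region at the amino acid transporter gene Slc7a8, chr14:54722603-54724553, was uneven, at 1539, 512, 755 and 1658 bp.

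**Figure D3:**
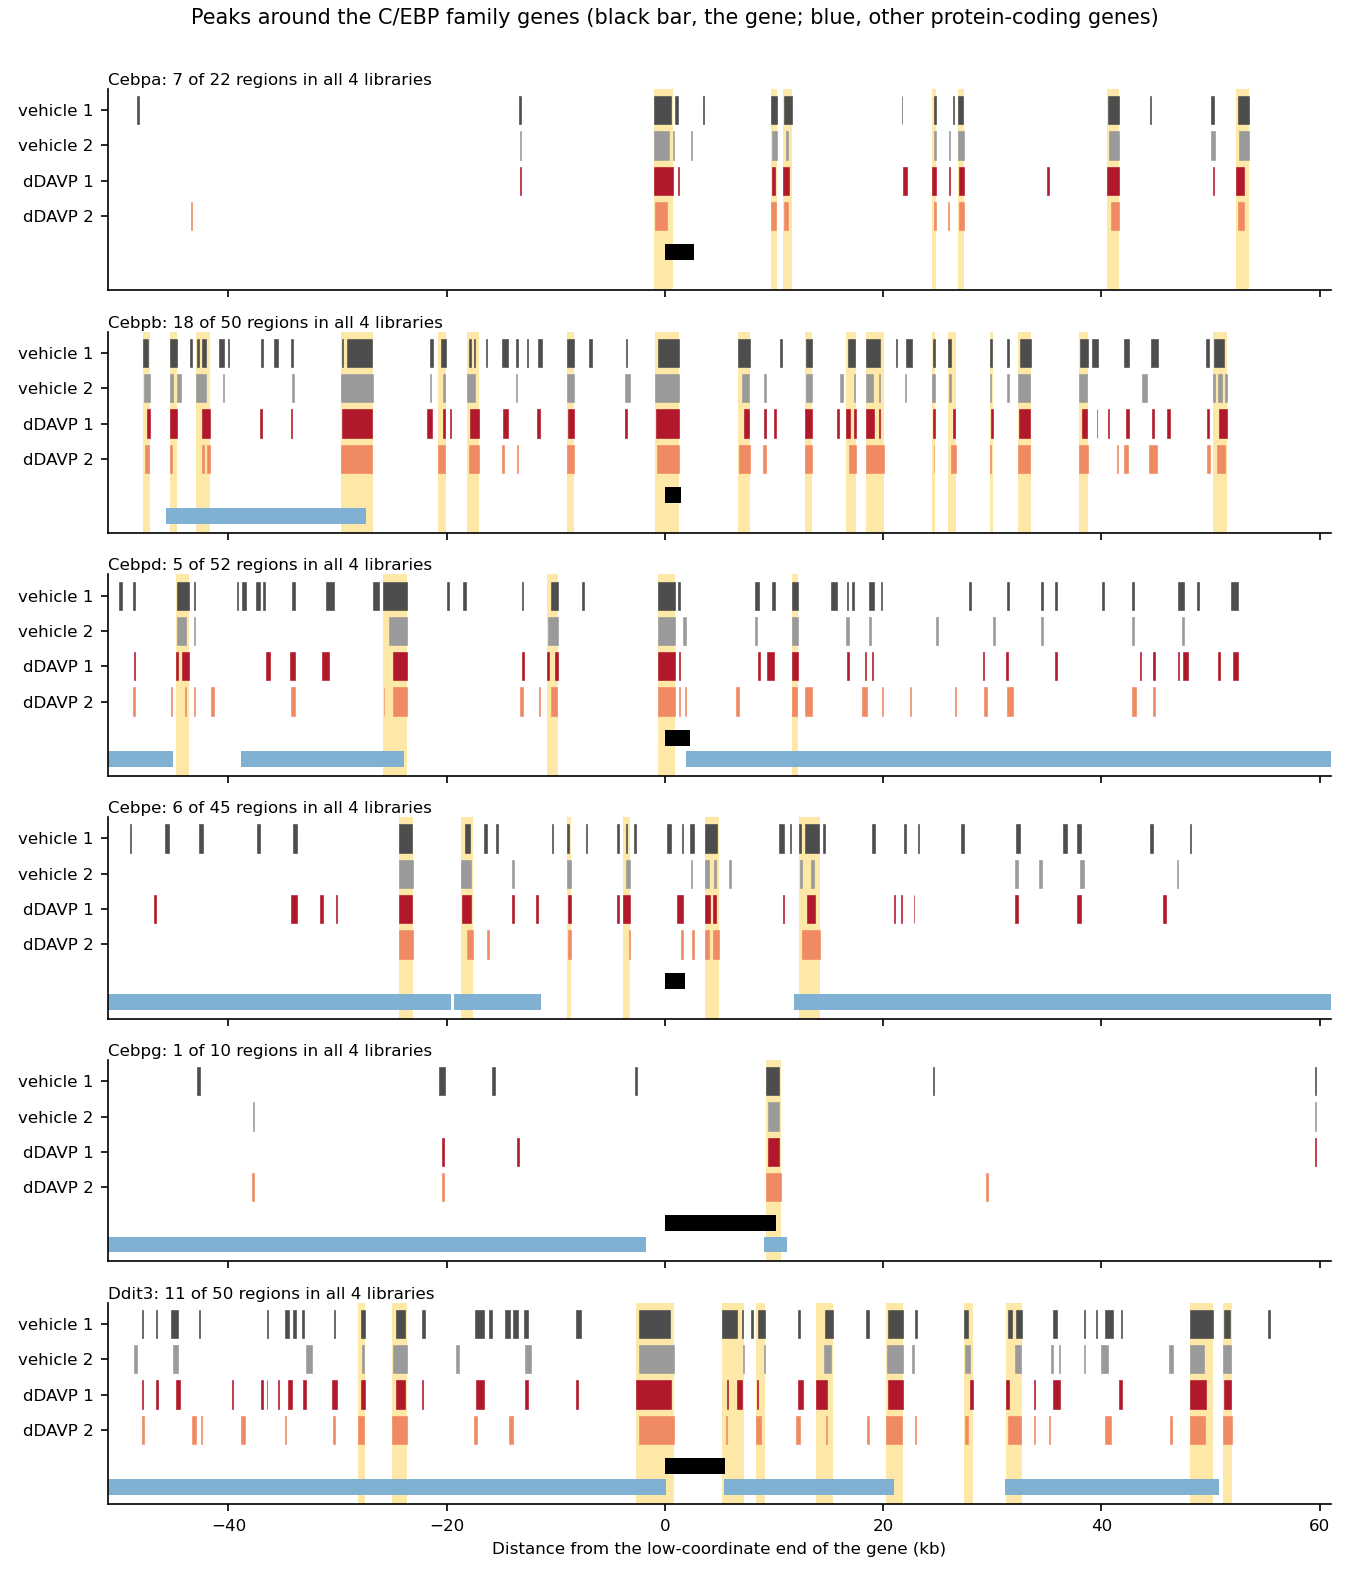
Called peaks of the 4 libraries around each gene, 1 row per library, by distance in kb from the gene's low-coordinate end. Yellow bands mark the 48 shared regions, black bars the gene itself and blue bars other protein-coding genes: the Cebpb bands lie on both sides and those of Cebpa on 1 side only.

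Over all 6 loci, 6 of the 48 shared regions lay at a member's own end, 12 at the end of another protein-coding gene, 2 at the start of another annotated RNA (Gm51475 and Gm38988, both near Cebpa) and 5 inside a protein-coding gene. The other 23, or 47.9%, lay elsewhere. The table used gives no exons, so no split into exons and introns was made. The share of shared regions was lower farther from the gene: 6 of 16 regions within 1 kb of the gene (37.5%), 11 of 30 between 1 and 10 kb (36.7%), 16 of 74 between 10 and 25 kb (21.6%) and 15 of 109 between 25 and 50 kb (13.8%). Close regions were thus more often shared than remote ones, in a set where the nearest ones include the promoters, and no test was made.

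Shared regions at protein-coding gene ends were more even between libraries than those elsewhere, in the loci as in the genome and as a description. The widest library exceeded the narrowest by a median of 1.59 times in the 18 at gene ends and 2.10 times in the other 30, where the genome gave 1.38 and 2.31. The Cebpd gene-end region was the most even, at 1.02 times, and the Ddit3 end region at Mars1 the most uneven, at 17.9 times. Second came chr2:167705488-167706447 near Cebpb, at 8.89 times, with 621, 72, 584 and 640 bp: vehicle replicate 2 alone was low.

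No difference between dDAVP and vehicle in the C/EBP loci passed a test. The question of the comparison was whether activating the V2 receptor, which raises cAMP, went with a change in accessibility at these loci within 30 minutes. The loci held 171 and 98 peaks in the vehicle libraries and 131 and 99 in the dDAVP libraries. The means were 115 ± 22.6 with dDAVP and 134.5 ± 51.6 with vehicle (SD, n = 2), a ratio of 0.855 (exact two-sided permutation p = 1, and 1 after Benjamini-Hochberg adjustment over 3 comparisons). The dDAVP values lay between those of vehicle. With 2 libraries against 2 the smallest p possible is 0.333, so no such comparison could pass 0.05.

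Covered length gave 74.0 and 48.1 kb for vehicle and 57.8 and 51.0 kb for dDAVP, a ratio of 0.890 (exact permutation p = 1, adjusted p = 1). The long list of vehicle replicate 1 moved with both ratios: without that library they were 1.17 for peaks and 1.13 for length. Per 10000 peaks of each list the loci held 4.34 and 4.73 with vehicle and 4.49 and 4.81 with dDAVP, a ratio of 1.03 (exact permutation p = 0.667, adjusted p = 1). The groups overlapped on all 3 measures. Vehicle replicate 1 also gave 57 of the 108 regions of 1 library, against 14 from vehicle replicate 2, 23 from dDAVP replicate 1 and 14 from dDAVP replicate 2. The part of list length in these numbers was not tested beyond this.

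Taken singly, none of the 6 genes separated the treatments. Cebpb had 43 and 32 peaks with vehicle and 36 and 26 with dDAVP, Ddit3 39 and 22 against 30 and 26, and Cebpa 15 and 12 against 13 and 9. Cebpd had 36 and 15 against 27 and 25, Cebpe 33 and 15 against 22 and 10, and Cebpg 7 and 3 against 4 and 4. In each case the ranges of the groups overlapped, and vehicle replicate 1 had the most peaks.

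**Figure D4:**
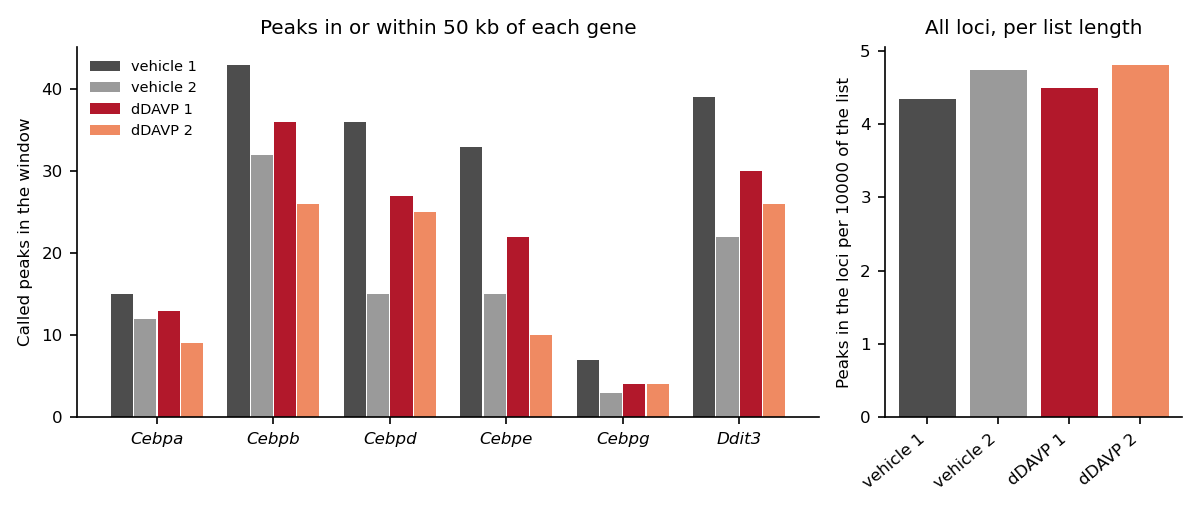
Bars on the left give the number of peaks in or within 50 kb of each gene in each library, and bars on the right the peaks of all loci per 10000 peaks of the library's list. Vehicle replicate 1 has the tallest bar for all 6 genes on the left and, at 4.34, the shortest on the right.

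Regions with a peak in both dDAVP libraries and no vehicle library numbered 4 of 226, or 1.77%, where 1.61% of all merged regions had that pattern. Of these, 3 lay inside Spidr near Cebpd: chr16:15905338-15905841, with 82 and 504 bp in dDAVP replicates 1 and 2, chr16:15916393-15916815, with 137 and 296 bp, and chr16:15932003-15932205, with 182 and 178 bp. The other, chr10:127324621-127324739, lay in Arhgap9 near Ddit3, with 119 and 76 bp. All lay over 10 kb from the C/EBP gene.

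The reverse pattern, both vehicle libraries and no dDAVP library, was found in 5 regions, or 2.21%, where 3.35% of all merged regions had it. Near Cebpb these were chr2:167648018-167648536 inside Tmem189, with 451 and 85 bp in vehicle replicates 1 and 2, chr2:167710938-167711527, with 551 and 72 bp, and chr2:167720262-167720430, with 169 and 142 bp. The others were chr16:15921744-15921952 in Spidr, with 188 and 209 bp, and chr10:127329168-127329313 in Arhgap9, with 120 and 77 bp. Cebpa, Cebpe and Cebpg had no region of either pattern. Both counts depend on the libraries used: with 1 library left out, so that fewer libraries had to match the pattern, they ran from 6 to 29 for dDAVP and from 14 to 64 for vehicle, highest without dDAVP replicate 2 and without vehicle replicate 2 respectively. The count of 64 rests on vehicle replicate 1, the longest list, as the only vehicle library. Shares of all merged regions are not given for these settings, so the counts are no result about the loci.

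The summed widths of the 48 shared regions were compared with limma, fitted to the quantile-normalised log2 summed widths of all 88231 shared regions of the genome. No region was called at an adjusted p of 0.05, in the loci or elsewhere, which does not show that widths were equal. At an unadjusted p under 0.05 there were 4000 regions over the genome (4.53%) and 1 in the loci (2.08% of 48). That region was the one at Mzt2 near Cebpd. Its vehicle widths of 2167 and 1651 bp both exceeded its dDAVP widths of 1275 and 1374 bp, and the fitted log2 difference was -0.48 (SE 0.15, limma unadjusted p = 0.0213, adjusted p = 1.00).

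The regions with the members' widest gene-end peaks gave fitted dDAVP to vehicle ratios near 1. The ratio was 1.01 for Cebpa (95% interval 0.683 to 1.49), 1.01 for Cebpb (0.828 to 1.24), 1.04 for Cebpd (0.843 to 1.28), 1.05 for Cebpg (0.693 to 1.58) and 1.06 for Ddit3 (0.912 to 1.24). Apart from that of Cebpg, these intervals end short of 1.5 times in either direction, that of Cebpa only just. They are unadjusted and rest on 2 libraries per treatment, with the spread estimated partly from other regions. That spread may be technical, so the intervals do not exclude a change of that size. Cebpe has no shared region at its ends to test. Widths are a coarse measure, and a change in the number of cuts within a peak of the same width would not appear in them.

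None of the other shared regions passed the threshold either. The largest fitted log2 difference was 1.67 (SE 1.01, limma unadjusted p = 0.153), at chr2:167705488-167706447 near Cebpb, where vehicle replicate 2 had 72 bp. The region at Prkdc near Cebpd gave -1.30 (SE 0.79, limma unadjusted p = 0.152), with 152 bp in dDAVP replicate 2. In both, the treatments overlapped in the deposited widths. Among regions without such overlap, the following 3 had the largest fitted differences. Within Kif5a, a kinesin gene near Ddit3, chr10:127262671-127263325 had 293 and 107 bp with vehicle and 405 and 576 bp with dDAVP, a log2 difference of 1.56 (SE 0.68, limma unadjusted p = 0.0647). Upstream of Cebpb, chr2:167670813-167671888 had 242 and 681 bp against 847 and 907 bp, a log2 difference of 1.21 (SE 0.64, unadjusted p = 0.111). The last shared region past Cebpa narrowed in the estimate, by a log2 difference of -0.60 (SE 0.28, unadjusted p = 0.0789). Of the 48, 28 were wider with dDAVP by the estimate (58.3%), where 54.1% of all shared regions were. In the deposited widths, both dDAVP libraries exceeded both vehicle libraries in 5 (10.4%), where 12.9% of all shared regions did, and the reverse held in 7 (14.6%), where 17.5% did.

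**Figure D5:**
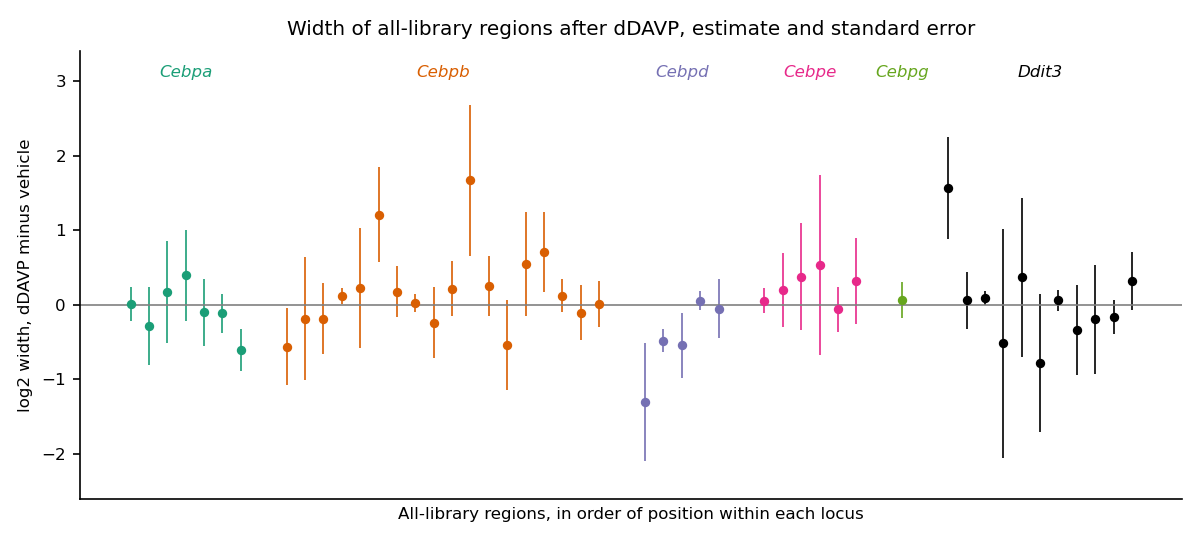
Fitted log2 difference in width, dDAVP minus vehicle, for the 48 shared regions, grouped by gene, in order of position, with lines for 1 standard error on each side of the estimate. The regions with the widest gene-end peaks of Cebpa, Cebpb, Cebpd, Cebpg and Ddit3 lie near 0.

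The listed genes of other bZIP factors, of C/EBP partners and regulators and of the stress response all had gene-end peaks under the 1 kb rule. All 7 AP-1 genes, all 16 ATF and CREB genes, all 4 PAR bZIP genes, all 17 genes for partners and regulators and all 20 genes of the integrated stress and unfolded protein response had one in all 4 libraries, where 65.0% of protein-coding genes did. With a 0.5 kb window, 14 ATF and CREB, 3 PAR bZIP and 18 stress response genes did (59.4% of all genes). Without peaks narrower than their library's median, 14 ATF and CREB and 3 PAR bZIP genes did (58.1%). The AP-1 and partner lists stayed full under both. Among AP-1 genes the widest were Jun, at 2517 ± 362 bp, Fos, at 2316 ± 670 bp, and Jund, at 1952 ± 49.2 bp (SD, n = 4 here and below). Among ATF and CREB genes, Atf3, which is stress-induced, had 1572 ± 20.4 bp, Atf2 1534 ± 116 bp and Creb1, the cAMP-response-element binding protein gene, 1529 ± 47.0 bp. Of the regulators, Gsk3b, a kinase gene, had 1954 ± 73.6 bp, Trib1, whose product promotes C/EBPα degradation, 1930 ± 110 bp, and Ep300, a coactivator, 1811 ± 14.5 bp. Ppp1r15a, a CHOP target that reverses eIF2α phosphorylation, had 2100 ± 748 bp, Bbc3 1570 ± 87.2 bp and Xbp1 1372 ± 429 bp. In the PAR group Dbp had 1629 ± 578 bp, Nfil3 1051 ± 908 bp and Tef 1022 ± 59.7 bp.

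For genes known as C/EBP targets in other tissues the count depended on the rule. Peaks in all 4 libraries were found at 7 of 16 acute phase and inflammation genes, 7 of 12 genes of metabolism and fat and 3 of 9 myeloid genes, where 65.0% of protein-coding genes had one. With a peak in any 1 library the counts were 13 of 16, 11 of 12 and 8 of 9, where 80.8% of genes had one. The lists thus stood below the share of all genes under the first rule but not the second, where the acute phase list nearly equalled it. Saa1, Saa2, Saa3, Il1b, Plin1 and Csf1r had a peak in vehicle replicate 1 alone, the library with the longest list, and Camp in dDAVP replicate 1 alone. With a gene-end window of 2.5 kb they were 9, 9 and 6, where 72.2% of genes had a peak in all 4 libraries. The myeloid count was 5 without dDAVP replicate 2, where 67.5% of genes had a peak in every remaining library. Socs3, a feedback inhibitor of cytokine signalling, led the first group at 1707 ± 246 bp, followed by Cxcl2 at 1104 ± 341 bp and Ptgs2 at 886 ± 98.3 bp, while Orm1, Crp and Ccl2 had none in any library. Slc2a4 (1222 ± 144 bp), Scd1 (1126 ± 36.4 bp) and Pparg (691 ± 455 bp) led the second, where Cps1, a urea cycle enzyme gene, had none. In the third, Prtn3, Ltf and Lyz2 had 864 ± 297, 409 ± 156 and 384 ± 69.7 bp, and Csf3r, the G-CSF receptor gene, had none. No test was made of these shares, and a peak at a target shows nothing of which factor binds there.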

How the data were processed

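ATAC-seq measured accessible chromatin in 4 libraries of 50000 mpkCCD cells, sequenced as read pairs of 50 bases. Per the submitters' processing notes, the tools were MACS2, Bowtie2, cutadapt, Picard, SAMtools and bedtools, on the build mm10. For versions, settings, the peak threshold and any shift for the transposase, nothing is given in the sources used here. Each library has its own list of peaks, as the authors deposited it, holding chromosome, start and end, with no score or signal, so presence and width were the only values, and depth is unknown. A deeper library can yield more and wider peaks.

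Treatment and replicate number came from the sample titles. Peaks overlapping by 1 bp or more were merged, and coordinates are 1-based. Genes came from the RefSeq table on GRCm38.p6, where 147 of 147 list entries matched. It gives no strand, so windows of 1 kb around both ends of a gene were used; strand for 4 members came from the RefSeq promoter table. Peak numbers and covered lengths were compared by exact two-sided permutation tests. Widths of shared regions, summed over the peaks of a library, were fitted with limma 3.58.1 (R 4.3.3) on quantile-normalised log2 widths, with eBayes trend and Benjamini-Hochberg adjustment at 0.05 over all 88231. Merging and fit were tested on simulated data, where the fit recovered most of the 4-fold width changes but missed most of the 2-fold ones. All simulated regions were given the same spread, unlike the real ones, so this does not tell how the fit performs on these data. Python 3.11.15, numpy 2.4.6, pandas 2.3.3 and scipy 1.17.1 were used.

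The members, lists and tests were chosen with earlier results of these data known. By rule, the text names for each member its gene-end region, treatment-specific regions, its widest and farthest shared regions and the neighbours they touch. Per list it names up to 3 genes with the widest gene-end peak in all libraries and up to 3 without any. The intercalated cell and proximal tubule markers are given as counts only. Aqp2, Avpr2, the regions named for an even or uneven width and those with a large fitted difference were chosen after their values were seen, as was the motif TTGCGC. Alternatives were the replicate block, each library left out, a wider or narrower window, stricter peak or overlap rules and other width scalings.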

Additional observations from a re-analysis of the deposited data

How the results depend on the processing

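The ratio of dDAVP to vehicle peak numbers in the loci, 0.855, turned to 1.03 when each list was limited to its widest 205771 peaks and to 1.03 per peak of the list (added after seeing the data). With 1 library left out it ran from 0.673 to 1.17, and the ratio of covered length from 0.735 to 1.13; both exceeded 1 only without vehicle replicate 1. Regions of both dDAVP libraries alone numbered 1 with peaks narrower than their library's median dropped, 1 within 25 kb and 9 within 100 kb, and 6 to 29 with 1 library left out. Regions of both vehicle libraries alone numbered 1, 1 and 14 under the same settings, 8 with a 50% reciprocal overlap, and 14 to 64 with 1 library left out. For both patterns, the share of all merged regions under these settings is not given, so the counts show only their dependence on the setting. Shared regions numbered 31 with the wider peaks, 85 within 100 kb and 49 to 63 with 1 library left out. The count of regions called different in width ran from 0 to 18 over the genome with 1 library left out, 18 without dDAVP replicate 2, where the lone dDAVP library is assumed to vary like the others; none of the 18 was in the loci. Of 54 alternatives for the shared regions of single members, 41 stayed within 1.5 times, 9 were higher and 4 lower. The 10 alternatives for gene ends of the C/EBP family all stayed within 1.5 times, as did 109 of the 120 for the other lists, with 8 higher and 3 lower. In lists already full under the 1 kb rule, the C/EBP family among them, looser rules or a library left out could not change the count. Unknown depth and 2 libraries per treatment limit what can be detected, and the causes of these shifts were not tested.

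The labels number replicates 1 and 2 in both treatments without saying that a number marks a pair. In quantile-normalised widths, same-numbered libraries deviated together only weakly (r = 0.0969 across 88231 shared regions, which are not independent). That scaling removes shifts of a whole library. In list length, replicate 1 exceeded replicate 2 with vehicle (393956 and 206972 peaks) and with dDAVP (291454 and 205771), so a pairing remains possible. With a replicate block the ratio was 0.880 for peaks (exact p = 1) and 0.909 for covered length (exact p = 1), and the number of width calls was 0.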

Other observations

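Cebpg and Cebpa lie 62.726 kb apart on chromosome 7, and apart from their own end regions the interval between them held 3 regions, of which 2 came from 1 library and none was shared. A stretch of 29.949 kb in it, chr7:35075997-35105945, had no called peak in any library. Whether reads map there evenly was not tested, since depth is not in the files.

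Protein-coding genes with the pattern nearest to each member were sought by the Euclidean distance over 8 values, the peak number within 50 kb and the widest gene-end peak in each of the 4 libraries, on a log2 scale. For Cebpb these were Ccdc92, at a distance of 0.150, and Zfp664, at 0.231. For Cebpd they were Ncl (0.265) and Peak1 (0.356), for Cebpa Cnot3 (0.428) and Tada1 (0.459), and for Cebpe Nid2 (0.501) and Crhr2 (0.833). The nearest to Cebpg, Gm45095 (0.193), and to Ddit3, Mbd6 (0.207), share a gene-end region with the member, and Cacybp (0.537) and Zfp36l2 (0.520) came next. The measure reflects the peak lists' lengths as well as the genes.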
